A study of Homo sapiens with 12 samples.

Results

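The comparison described here is that of HEK293T cells transfected with an siRNA against U1 small nuclear RNA and cells transfected with a scrambled oligo, 3 libraries each, chosen by the treatment named in the sample titles and making up 6 of the 12 libraries of the series. HEK293T is a line from human embryonic kidney in which the SV40 large T antigen is expressed. The U1 siRNA group received a Dicer-substrate siRNA at 1 nM, and the control group, titled Scram, received a scrambled oligo whose dose and sequence the labels do not give. In both groups RNA was taken 24 h after transfection, and the titles of both groups carry the word WT, which the labels do not explain. The other 6 libraries came from cells given a miR-211 plasmid or a control plasmid. All libraries are of 1 cell line, and the labels do not say whether replicates were separate cultures, so every p-value here rests on the spread among the libraries, part or all of which may be technical. The labels state that U1 was inhibited by 30%, without saying how this was measured.

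U1 small nuclear RNA (U1 snRNA) is the RNA of the U1 snRNP, the particle that marks the 5′ splice site of an intron by base pairing before the rest of the spliceosome assembles. Its proteins are SNRNP70, SNRPA and SNRPC together with the ring of Sm proteins shared by most spliceosomal particles. U1 is also known to shield long transcripts from early cleavage and polyadenylation at cryptic sites inside introns. In mammals U1 is transcribed from many near-identical gene copies and from variant copies, named RNU1 and RNVU1, which are clustered on chromosome 1. A Dicer-substrate siRNA is cut by DICER1 and loaded into an Argonaute protein, which cleaves RNAs that pair with the guide strand.

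The siRNA strand printed in the labels is antisense to U1, and U1 copies were sorted by whether they hold its whole target of 27 bases. The match of the shorter guide that DICER1 cuts from such an siRNA was not tested. The strand, its target, and the RNU1-1 transcript (chr1:16514122-16514285, minus strand, GENCODE 29 on GRCh38) are given 5′ to 3′, with the target in capitals and beginning at base 107.
siRNA strand: ccacaaattatgcagtcgagtttccca
target: TGGGAAACTCGACTGCATAATTTGTGG
RNU1-1: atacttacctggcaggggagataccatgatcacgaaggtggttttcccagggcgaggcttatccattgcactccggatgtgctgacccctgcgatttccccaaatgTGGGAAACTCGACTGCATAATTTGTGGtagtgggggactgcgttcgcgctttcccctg

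Of 15 annotated U1 genes with the symbols RNU1 or RNVU1 and no pseudogene suffix, 8 hold the whole target of 27 bases and 7 do not. The windows of 3 copies without it that had the most counts among the 15 are shown with the bases that differ from the target in capitals. The same substitutions, counted from 1 at the 5′ end of the target, are C10T and C16T in RNVU1-6 (chr1:146052081-146052244, minus strand), G3A, A5G, T21C and G27A in RNVU1-15 (chr1:144412576-144412740, plus strand), and A7T, C10T, C13T and G15A in RNVU1-4 (chr1:120942600-120942763, plus strand).
RNVU1-6: tgggaaactTgactgTataatttgtgg
RNVU1-15: tgAgGaactcgactgcataaCttgtgA
RNVU1-4: tgggaaTctTgaTtAcataatttgtgg

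The copies also differ at their first bases, which pair with the 5′ splice site. RNU1-1 opens with atacttacctg, as does RNVU1-6, whereas RNVU1-15 opens with atacttacttg and RNVU1-4 with atgtttatctg. Of the 14 annotated genes found on assembled chromosomes to hold the whole target, 6 of them outside the 15, 8 including RNU1-1 have identical transcripts. A read that maps equally well to several copies is not assigned to a gene, so the counts of these genes come only from reads that told the copies apart. The identical transcripts include those of 5 of the 8 named genes with the whole target, RNU1-1 among them. A pair that lies wholly inside such a transcript fits each of these copies equally well. How far their counts follow the level of mature U1 was not tested.

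Counts over genes totalled 4515728 to 6343000 per library in the U1 siRNA group and 5903205 to 9290686 in the scrambled oligo group, called the controls from here on. The second U1 siRNA library differed from the other 5. In U1 siRNA replicate 2, 44.5% of uniquely mapped read pairs lay outside annotated exons, against 18.0% and 19.3% in U1 siRNA replicates 1 and 3 and 18.6% to 25.5% with the scrambled oligo. It also had counts in the most genes, 39294 against 27660 to 36453, although its total was the lowest. Its 381 olfactory receptor genes, which code for odorant receptors of the nose and were chosen as a measure after the data were seen, took 248 CPM (not scaled by TMM) against 31.2 to 68.7 in the others. The first principal component carried 47.6% of the variance of log2 expression and set mainly this library apart. No exact permutation test over libraries of 7 such measures passed (2-sided p 0.2 to 1, adjusted p 1 for each, where 3 against 3 cannot go below 0.1). Results are therefore given with and without this library.

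**Figure D1:**
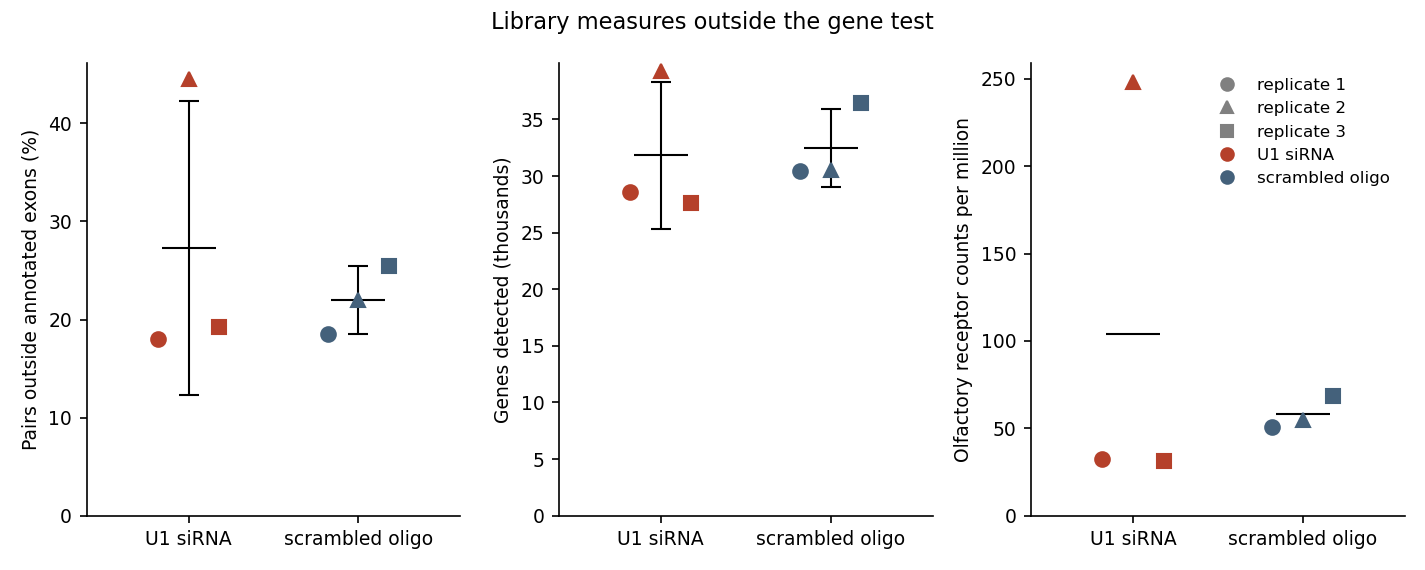
Share of uniquely mapped pairs outside annotated exons (%), genes with at least 1 count and summed CPM of olfactory receptor genes without TMM scaling, by library. Horizontal bars are group means and, in the left and middle panels, error bars are SD (n = 3). U1 siRNA replicate 2 (triangle) lies above the other 5 libraries in each panel, at 44.5%, 39294 genes and 248 CPM.

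Summed over the named U1 gene copies that hold the whole siRNA target, counts were lower in every siRNA library than in any control. The groups overlapped for the sum over the copies with substitutions. Single copies of either kind did not all follow their sum, as given below. The 8 target-holding copies summed to 4.18, 2.38 and 2.87 CPM (counts scaled to library size by TMM) in the 3 U1 siRNA libraries and to 5.50, 5.10 and 4.54 in the 3 scrambled oligo libraries. All 3 U1 siRNA libraries lay below all 3 controls. The means were 3.14 ± 0.930 and 5.05 ± 0.485 CPM (SD, n = 3), a difference of -37.7%, with a ratio of summed counts of 0.646 (exact 95% interval 0.457 to 0.904, which covers counting error only). The sums rest on 53 and 111 counts in all, and 3 against 3 libraries cannot give a 2-sided exact permutation p below 0.1. Without U1 siRNA replicate 2 the difference was -30.2% and the ratio 0.713, with an interval of 0.487 to 1.03 that includes 1.

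The 7 copies with substitutions summed to 15.1, 11.2 and 14.7 CPM with the siRNA and to 14.5, 14.3 and 11.99 in the controls. The groups overlapped, with means of 13.7 ± 2.12 and 13.6 ± 1.40 CPM, and the ratio of summed counts was 1.04 (0.868 to 1.23). All 15 genes together had 16.8 ± 2.90 against 18.6 ± 1.86 CPM (-9.76%, ratio 0.930, 0.796 to 1.09). Without U1 siRNA replicate 2 this difference was -1.19%. Most of the counts over named U1 genes were on copies that the siRNA does not match in full. Reads that fit identical copies equally well were not counted, so this does not give the proportions of U1 RNAs in the cells. The 14 genes with the whole target, counted with those outside the 15, had 5.78, 2.81 and 5.20 against 7.05, 6.80 and 5.94 CPM, and the groups again did not overlap. The ratio was 0.728 (0.546 to 0.965), and 0.844 (0.620 to 1.14) without U1 siRNA replicate 2.

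The share of the 15 genes' counts that fell on the 8 target-holding copies does not depend on library scaling. It was 21.7%, 17.5% and 16.3% with the siRNA and 27.5%, 26.3% and 27.5% in the controls, and the groups did not overlap. The means were 18.5% ± 2.81 and 27.1% ± 0.659 (SD, n = 3), a difference of -8.59 percentage points (2-sided exact permutation p 0.1, the smallest that 3 against 3 allows, adjusted p 0.8 over 8 library measures). It was -8.08 points without U1 siRNA replicate 2 (exact permutation p 0.2) and -10.2 to -7.51 points with each library left out in turn. Exact 95% intervals of single libraries were wide, 14.7% to 30.1% in U1 siRNA replicate 1 and 20.3% to 35.6% in scrambled oligo replicate 1. The 6 plasmid libraries, which received no siRNA, ranged from 20.4% to 38.1%, so the U1 siRNA replicate 1 value lay within their range and those of replicates 2 and 3 below it. This measure was chosen after the data were seen.

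**Figure D2:**
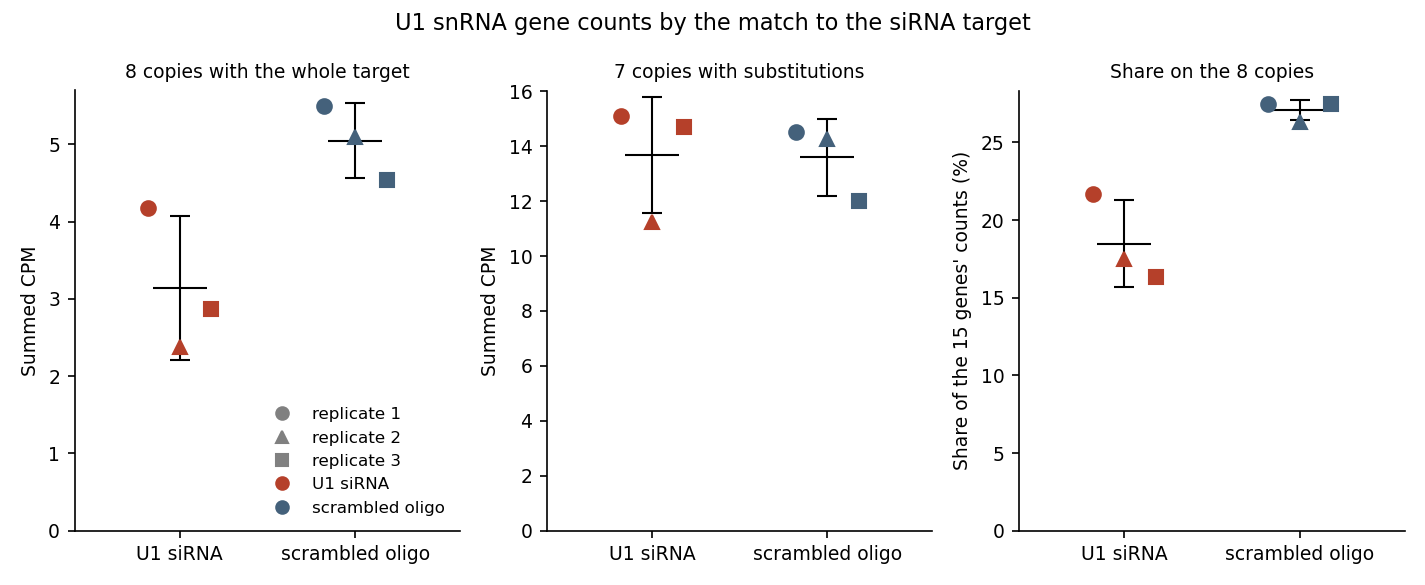
Summed CPM of the 8 named U1 genes with the whole siRNA target (left) and of the 7 with substitutions in it (middle), and the share of all their counts that fell on the 8 (right, %). Points are libraries, horizontal bars are means and error bars SD (n = 3). The U1 siRNA libraries lie below all scrambled oligo libraries on the left (at most 4.18 against at least 4.54 CPM) and right (at most 21.7% against at least 26.3%), and overlap them in the middle.

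Single copies had too few counts for more than a description. RNU1-1 had 6, 4 and 7 counts with the siRNA and 11, 7 and 6 in the controls, a ratio per total of 0.959 (0.483 to 1.86). RNU1-2 had 9, 4 and 6 against 11, 13 and 10 counts (0.756, 0.408 to 1.36), and RNVU1-7 had 5, 3 and 1 against 9, 4 and 13 (0.468, 0.193 to 1.03). RNVU1-18 had 5, 0 and 2 against 6, 3 and 9 counts (0.526, 0.186 to 1.32). Among the copies with the whole target that carry only the Rfam family name RF00003, ENSG00000278099 had 5, 1 and 6 against 4, 2 and 4 counts (1.62, 0.643 to 4.20), and ENSG00000273768 had 4, 1 and 6 against 5, 6 and 7 (0.827, 0.353 to 1.85). Each of these intervals includes 1, so a change of these single target-holding copies was not detectable at this depth.

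Another RF00003 gene (ENSG00000274210, chr1:148522601-148522765, plus strand) differs from the target in its last base, G27A. It had 23, 10 and 18 counts with the siRNA and 34, 25 and 49 in the controls, a ratio of 0.639 (0.449 to 0.900). It was picked out after its values were seen. ENSG00000206828, an RF00003 gene with 5 mismatches to the target, had 28, 13 and 25 against 17, 28 and 33 counts (1.15, 0.812 to 1.61). The 13 RF00003 genes on assembled chromosomes summed to 8.82 ± 2.45 CPM with the siRNA and 10.1 ± 1.22 in the controls, a difference of -12.9%, or 0.693% without U1 siRNA replicate 2. The window of ENSG00000274210, the gene picked out after its values were seen, is shown with the base that differs from the target in capitals.
ENSG00000274210: tgggaaactcgactgcataatttgtgA

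Of the 15 named genes, RNVU1-4, RNVU1-6 and RNVU1-15 passed the filter on low counts and entered the gene test. RNVU1-4 had 2.57, 2.81 and 3.23 CPM with the siRNA and 3.95, 3.74 and 4.21 in the controls (log2 fold change -0.47, SE 0.30), and RNVU1-15 had 4.82, 4.54 and 5.55 against 4.23, 3.91 and 3.67 (0.34, SE 0.26). The groups did not overlap for either gene, in opposite directions, and neither passed. Among all genes tested, the U1 siRNA libraries lay wholly above the controls in 3.41% and wholly below them in 2.86%. RNVU1-6 had 6.43, 3.24 and 5.37 against 6.07, 5.78 and 3.56 CPM (0.0040, SE 0.31), with overlap. Outside the 15, the RF00003 genes ENSG00000274210 (-0.64, SE 0.30), ENSG00000206828 (0.16, SE 0.35) and ENSG00000275405 (0.26, SE 0.43, on a scaffold outside the assembled chromosomes) and the pseudogene RNU1-85P (-0.14, SE 0.35) were tested, and none passed. Other small nuclear RNAs were thinly counted as well. RNU2-1, RNU11, RNU12 and RN7SK had 0 counts in each of the 6 libraries. This allows up to 0.323 to 0.664 CPM (3 counts of each library's total) of reads assigned to these genes. Reads that fit several places or several genes were not assigned, so this sets no limit on the level of these RNAs.

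Across the 12413 genes tested, none was higher or lower with U1 siRNA at an adjusted p under 0.05 (0% called, edgeR quasi-likelihood test, lowest adjusted p 0.99992), and DESeq2 and limma-voom also called 0. The count at an unadjusted p under 0.05 was 196 genes with edgeR, 1.58% of those tested, of which 124 had higher and 72 lower values with the siRNA, and there were 73 with DESeq2 and 180 with limma-voom. The 3 U1 siRNA libraries lay above the 3 scrambled oligo libraries in 423 genes (3.41%) and below them in 355 (2.86%). Of 7513 genes with a mean of at least 10 CPM, 99.8% had a log2 fold change within 0.5 of 0. Without U1 siRNA replicate 2 the test called 0 genes again and 384 had an unadjusted p under 0.05. All 196 genes kept the sign of their difference without that library, and 85 of them also kept an unadjusted p under 0.05.

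The genes with the strongest evidence in either direction are described next as values that did not pass (edgeR adjusted p of at least 0.99992 for each), ordered by signed p among protein-coding genes with a mean of at least 1 CPM. DNAJB6 (ENSG00000105993, chr7:157335381-157417439), a co-chaperone of HSP70 that limits protein aggregation, had 184, 165 and 186 CPM with the siRNA and 139, 143 and 149 in the controls (log2 fold change 0.31, SE 0.08). Every U1 siRNA library lay above every control, with replicate 2 the lowest of the 3. PGAM1 (ENSG00000171314, chr10:97426160-97433441), the glycolytic phosphoglycerate mutase, had 160, 133 and 162 against 118, 122 and 117 CPM (0.35, SE 0.09). PSAT1 (ENSG00000135069, chr9:78297143-78330093), a serine synthesis enzyme, had 807, 790 and 821 against 676, 730 and 658 CPM (0.23, SE 0.07). The groups were separate in both genes, and replicate 2 was the U1 siRNA library nearest to the controls.

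ARL6IP1, an endoplasmic reticulum shaping protein, had 436, 379 and 416 CPM with the siRNA and 362, 344 and 335 in the controls (0.24, SE 0.07). NPIPB5, a member of a duplicated gene family on chromosome 16 whose reads could be split between copies, had 9.96, 12.8 and 13.3 against 8.04, 7.48 and 6.26 CPM (0.73, SE 0.19). Again all U1 siRNA libraries were the higher ones. ITPK1, an inositol phosphate kinase, had 7.55, 6.27 and 7.17 against 4.65, 3.40 and 3.02 CPM (0.93, SE 0.26), and ZBTB45, a zinc finger protein, had 2.57, 3.46 and 4.12 against 1.55, 1.19 and 1.51 CPM (1.23, SE 0.36). Both are low-level genes with the groups apart by less than 2 CPM at their closest.

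SRD5A3, a polyprenol reductase needed for protein N-glycosylation, had 18.6, 14.1 and 13.98 CPM with the siRNA and 11.3, 9.35 and 10.9 in the controls (0.57, SE 0.17). DTD1, a D-aminoacyl-tRNA deacylase, had 25.2, 24.9 and 26.2 against 18.9, 19.03 and 20.95 CPM (0.37, SE 0.12). The U1 siRNA libraries of DTD1 lay close together, all above the controls. ANKS1A, an adaptor of Eph receptor signalling, had 13.98, 19.3 and 13.98 against 9.03, 9.86 and 11.99 CPM, with a log2 fold change of 0.59 (SE 0.18) that was 0.43 without U1 siRNA replicate 2. PLXDC1, a membrane protein of vessel endothelium, had 1.93, 7.14 and 2.15 against 0.705, 0.680 and 1.40 CPM. Its log2 fold change of 1.89 (SE 0.57) rested largely on replicate 2 and was 1.04 without it.

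At the lower end, GPBP1L1 (ENSG00000159592, chr1:45627304-45688113), related to the transcription factor GPBP1, had 137, 144 and 142 CPM with the siRNA and 174, 155 and 179 in the controls (log2 fold change -0.27, SE 0.08). CCNB1IP1 (ENSG00000100814, chr14:20311368-20333312), an E3 ligase that binds cyclin B, had 102, 109 and 96.8 against 126, 128 and 118 CPM (-0.27, SE 0.08). FZD6, a Frizzled receptor for Wnt ligands, had 30.5, 31.8 and 33.0 against 38.8, 41.5 and 39.3 CPM (-0.33, SE 0.10). In all 3 genes the groups were separate and U1 siRNA replicate 2 lay close to the other siRNA libraries.

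SYNJ2BP, an outer mitochondrial membrane protein, had 64.9, 66.0 and 75.4 CPM with the siRNA and 92.3, 81.4 and 79.3 in the controls (-0.29, SE 0.10). TWF1, an actin-binding twinfilin, had 154, 130 and 146 against 178, 174 and 159 CPM (-0.24, SE 0.08). EDEM3, which trims mannose from misfolded glycoproteins, had 21.2, 18.4 and 20.1 against 26.4, 24.8 and 25.5 CPM (-0.36, SE 0.12). The siRNA libraries were all the lower ones for each gene, in these 3 genes. UGCG, the glucosylceramide synthase, had 20.6, 22.1 and 18.6 against 26.4, 28.5 and 23.7 CPM (-0.36, SE 0.13), and NDRG1, a stress-responsive gene, had 8.19, 7.79 and 7.17 against 8.89, 12.7 and 13.3 CPM (-0.59, SE 0.20).

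ALYREF, an mRNA export factor that joins spliced mRNA through the TREX complex, had 11.1, 9.73 and 9.32 CPM with the siRNA and 12.8, 13.3 and 15.4 in the controls (-0.46, SE 0.16). NAF1, an assembly factor of H/ACA small nucleolar particles, had 5.78, 5.62 and 4.66 against 9.17, 7.65 and 7.56 CPM (-0.60, SE 0.22). KDM5C, a histone H3 lysine demethylase, had 5.14, 4.97 and 5.02 against 6.49, 8.84 and 7.99 CPM (-0.62, SE 0.22). In each of these 3 genes, taken from the lower end of the order, the siRNA libraries lay below the controls. FKBP1C, a gene close in sequence to FKBP1A whose reads could be split between them, had 1.93, 1.08 and 1.08 against 2.40, 2.72 and 4.10 CPM (-1.16, SE 0.41).

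**Figure D3:**
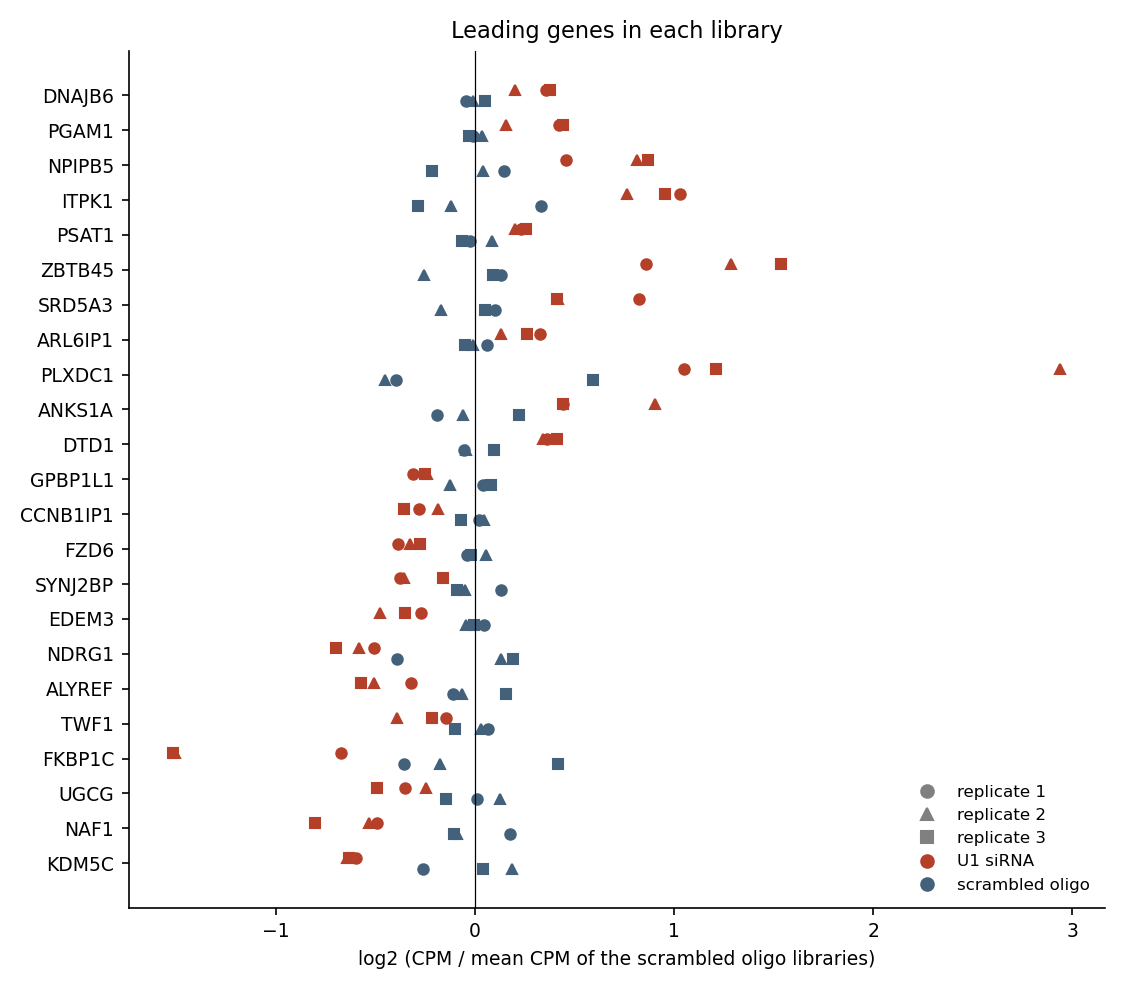
log2 of CPM over the mean CPM of the scrambled oligo libraries, in each of the 6 libraries, for the 11 leading genes with higher and the 12 with lower values under U1 siRNA. Red points are U1 siRNA libraries, blue points scrambled oligo libraries, and shapes are replicates. The colours do not overlap in any gene, as the ranking favours, no gene passed the test, and U1 siRNA replicate 2 lies far to the right in PLXDC1 (7.14 CPM).

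The proteins of the U1 snRNP were near their control levels. SNRNP70, which binds the first stem loop of U1, had 17.7, 14.9 and 14.9 CPM with the siRNA and 12.7, 16.8 and 17.9 in the controls (log2 fold change 0.0017, SE 0.16). SNRPA, which binds the second stem loop, had 23.5, 24.4 and 24.4 against 22.1, 24.6 and 27.9 CPM (-0.05, SE 0.12). SNRPC, which steadies pairing with the splice site, had 581, 566 and 564 against 593, 567 and 531 CPM (0.02, SE 0.07). The groups overlapped in each, and the differences were under their standard errors.

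All 18 genes listed as U1 snRNP proteins and partners were tested and 0 passed. Their log2 fold changes ran from -0.06 for PRPF39 (SE 0.09) to 0.15 for LUC7L (SE 0.15), and 7 of 18 had higher values with the siRNA (median -0.02, against 0.02 over all genes tested). LUC7L, a LUC7-like protein that tunes splice site choice, had 19.8, 26.2 and 17.9 against 19.3, 17.8 and 19.9 CPM, and only replicate 2 lay above the controls, its log2 fold change being -0.01 without it. LUC7L2 had 0.03 (SE 0.13) and LUC7L3 -0.01 (SE 0.08). Without U1 siRNA replicate 2 the median of the list was 0.01 and 10 of 18 had higher values. Over all genes tested, 54.7% had higher values, or 50.3% without that library, and these shares serve as background for each list below.

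None of the genes in the other splicing lists passed. Of the Sm ring and SMN assembly genes, which build the particle around the RNA, 24 were tested and 11 had higher values (median -0.01), or 18 of 24 without U1 siRNA replicate 2 (median 0.03). The list holds COIL, the scaffold of Cajal bodies, at -0.14 (SE 0.09) and SNRPD2, an Sm ring protein, at -0.01 (SE 0.07). Of the genes for snRNA transcription and the Integrator, the complex that forms snRNA 3′ ends, 23 were tested and 14 had higher values (median 0.01), or 16 of 23 without that library (median 0.04). SNAPC1, a subunit of the snRNA gene activator, had 19.6, 19.9 and 18.5 CPM with the siRNA and 21.3, 21.1 and 23.5 in the controls (-0.19, SE 0.12). Its siRNA libraries were all the lower ones.

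In the U2 snRNP list, the particle that binds the branch point, 7 of 17 genes had higher values (median -0.02), or 13 of 17 without U1 siRNA replicate 2 (median 0.05). SF3A1, a U2 protein that also contacts U1, had 28.4, 28.3 and 33.1 CPM against 36.0, 33.0 and 41.7 (-0.30, SE 0.12, unadjusted edgeR p 0.0299), the only member with an unadjusted p under 0.05, against 1.58% of all genes. The groups overlapped by a small margin, between U1 siRNA replicate 3 and scrambled oligo replicate 2. Of the U5 and tri-snRNP genes, 11 of 24 had higher values (median -0.01), or 19 of 24 without replicate 2 (median 0.04), with PPIH, a cyclophilin of the tri-snRNP, at -0.22 (SE 0.14).

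SR proteins, which promote splice site use, and their kinases had 5 of 22 higher values (median -0.03), but 13 of 22 without U1 siRNA replicate 2 (median 0.03). CLK2, a kinase of SR proteins, had 11.9, 10.8 and 15.1 CPM with the siRNA and 10.7, 8.497 and 9.94 in the controls (0.37, SE 0.18), and CLK3 had 0.24 (SE 0.13). In CLK2 the groups were separate by a narrow margin. The hnRNP proteins, which often oppose SR proteins, had 7 of 27 higher values (median -0.03), and 17 of 27 without replicate 2 (median 0.01). HNRNPL, a regulator of exon inclusion, had 22.5, 21.8 and 21.7 against 23.3, 23.5 and 26.998 CPM (-0.16, SE 0.12). The majority direction turned without that library in the U1 snRNP, Sm ring and SMN, U2, U5 and tri-snRNP, SR and hnRNP lists. Over all genes tested, the share with higher values was 54.7%, and 50.3% without that library.

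**Figure D4:**
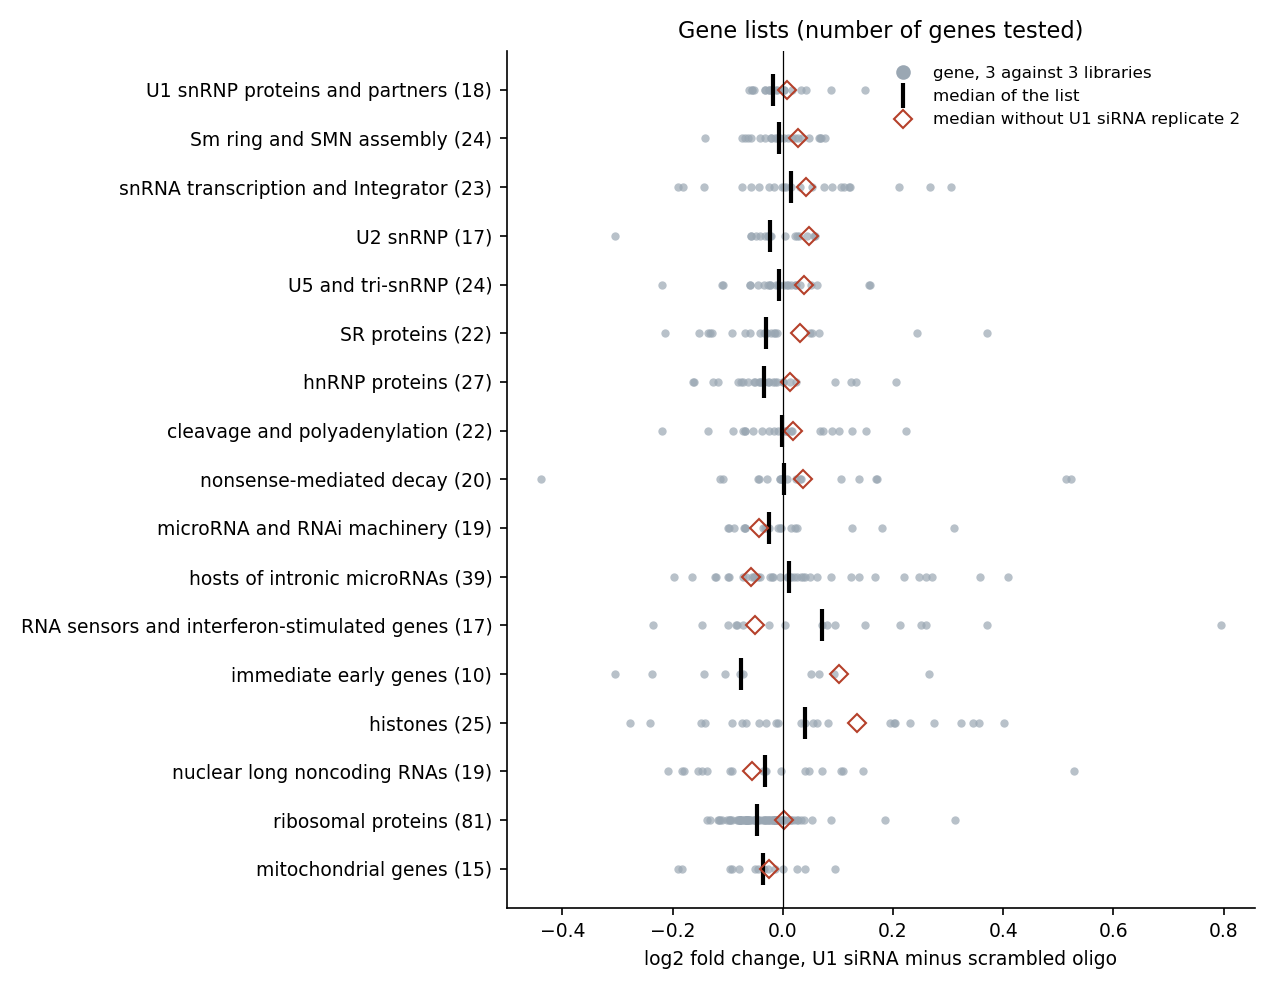
log2 fold change of each tested gene (grey points) in 17 gene lists, U1 siRNA minus scrambled oligo, with the list's median over 3 against 3 libraries (black bar) and without U1 siRNA replicate 2 (open diamond). The black bars lie between -0.08 and 0.07 and the diamonds between -0.06 and 0.13, and no gene shown passed the test. The number of genes tested is in brackets.

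Cleavage and polyadenylation factors, which cut the pre-mRNA and add the poly(A) tail, had 11 of 22 higher values (median -0.0022) and 0 calls, or 14 of 22 without U1 siRNA replicate 2 (median 0.02). PCF11, a factor that links 3′ end cleavage to termination, had 38.7, 35.7 and 45.3 CPM with the siRNA and 34.4, 34.2 and 34.1 in the controls. The controls lay close together and all U1 siRNA libraries lay above them (0.22, SE 0.11, unadjusted edgeR p 0.0690). PABPN1, the nuclear poly(A)-binding protein, had -0.22 (SE 0.12) with overlapping groups, and CPSF6 had -0.05 (SE 0.07).

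Long genes were examined because U1 is known to protect them. Among 10779 protein-coding genes tested, the 1078 of the longest decile (span of at least 187 kb) had a median log2 fold change of 0.07, and it was 0.06 higher than in the other genes. The sign depended on 1 library: without U1 siRNA replicate 2 the median of the longest decile was -0.06 and the difference from the others -0.07. In single libraries the median difference of log2 CPM from the 6-library mean in the longest decile was -0.08, 0.26 and -0.10 in U1 siRNA replicates 1, 2 and 3. It was -0.03, 0.01 and -0.03 in the scrambled oligo libraries. Replicates 1 and 3 of U1 siRNA were thus the lowest of the 6 and replicate 2 the highest.

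The shortest decile, with spans up to 7.07 kb, had the reverse order in replicate 2. Its medians were 0.08, -0.10 and 0.02 in the U1 siRNA libraries and 0.004, -0.03 and 0.04 in the scrambled oligo libraries. Replicate 2 also differed by expression level: in the decile with the lowest mean CPM its median was 0.51 above the 6-library mean and in the highest decile it was -0.09. The share of pairs outside exons was also highest in replicate 2, at 44.5%. It was 18.0% and 19.3% in U1 siRNA replicates 1 and 3, and 18.6%, 22.0% and 25.5% in the controls. Its part in the result was not tested beyond a fit with that share as a covariate, in which the difference between the longest decile and the others was -0.02.

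**Figure D5:**
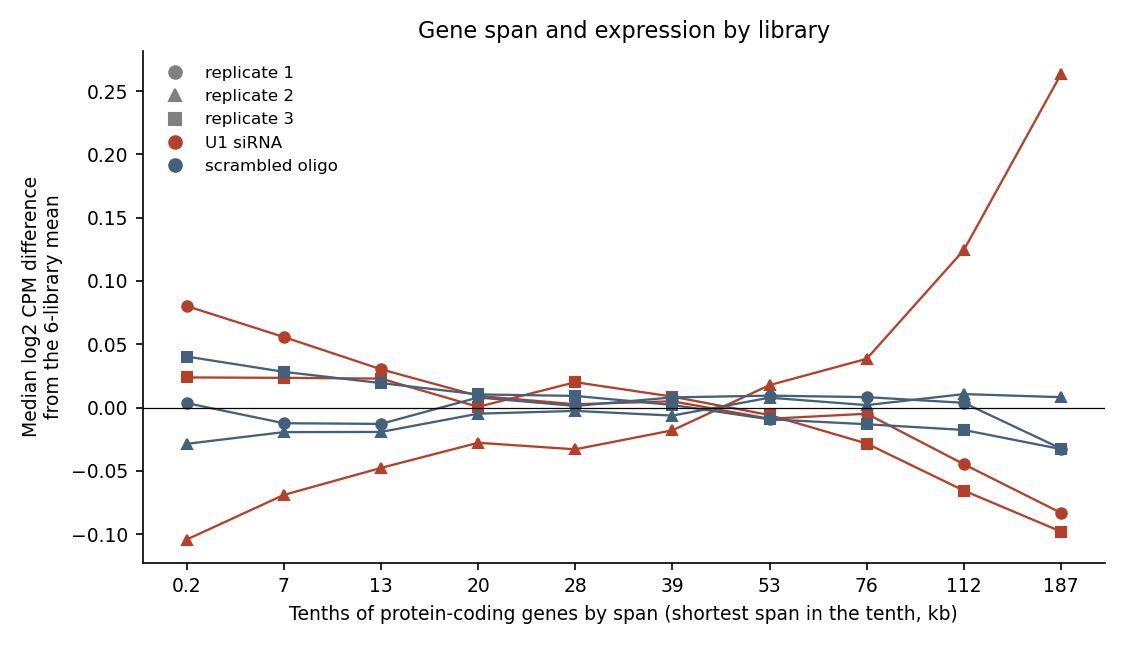
Median difference of log2 CPM from the 6-library mean (vertical axis) in deciles of 10779 protein-coding genes ordered by gene span (horizontal axis, labelled with the shortest span of each decile in kb). Each line is a library. U1 siRNA replicate 2 climbs from -0.10 to 0.26, while U1 siRNA replicates 1 and 3 drop to -0.08 and -0.10.

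Nonsense-mediated decay factors, which remove transcripts with early stop codons such as those made by missplicing, had 10 of 20 higher values (median 0.0026) and 0 calls, or 14 of 20 without U1 siRNA replicate 2 (median 0.04). SMG8, a subunit of the SMG1 kinase complex, had 14.3, 13.2 and 12.5 CPM with the siRNA and 9.59, 7.31 and 10.8 in the controls (0.51, SE 0.18, unadjusted edgeR p 0.0139). The groups were separate, and the log2 fold change was 0.52 without U1 siRNA replicate 2. SMG6, the endonuclease of the pathway, had 5.30, 9.08 and 4.66 against 5.08, 3.74 and 4.21 CPM (0.52, SE 0.30), and 0.20 without replicate 2.

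Genes of the microRNA and RNA interference machinery, which processes and uses both microRNAs and siRNAs, were all tested and 0 of 19 passed. Higher values were found in 6 of 19 (median -0.03, and -0.04 without U1 siRNA replicate 2). DROSHA, the nuclease that releases microRNA hairpins, had 69.4, 68.8 and 75.4 CPM against 66.9, 65.9 and 77.1 (0.02, SE 0.09), and its partner DGCR8 had 0.03 (SE 0.17). XPO5, which exports the hairpins, had 0.02 (SE 0.09). DICER1, which cuts hairpins and the siRNA itself, had 59.1, 53.9 and 49.8 against 57.8, 62.0 and 51.5 CPM (-0.07, SE 0.10). AGO2, the Argonaute that cleaves its targets, had 54.1, 55.6 and 48.9 against 47.3, 60.7 and 53.8 CPM (-0.03, SE 0.11). All groups overlapped in this list. TNRC6C, a silencing partner of Argonaute, had the largest value in the list, 0.31 (SE 0.20), with 19.7 CPM in replicate 2 against 11.2 to 12.1 in the other libraries.

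Host genes of intronic microRNAs were listed because the series title names them. Of 39 tested, 22 had higher values with U1 siRNA and 0 passed (median 0.01), while without U1 siRNA replicate 2 it was 14 of 39 (median -0.06). PANK3, a pantothenate kinase, had 47.4, 45.6 and 42.3 CPM against 55.7, 55.1 and 45.0 (-0.20, SE 0.11). EIF4A2, a translation helicase, had 327, 301 and 321 against 361, 324 and 349 CPM (-0.12, SE 0.07). Both groups overlapped, and so did those of every other host gene tested.

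RNA sensors and interferon-stimulated genes, which can respond to foreign double-stranded RNA, had 10 of 17 higher values and 0 calls (median 0.07, and -0.05 without U1 siRNA replicate 2). IFIT3, an interferon-induced protein, had 1.77, 4.76 and 1.79 CPM with the siRNA and 1.55, 1.19 and 1.84 in the controls (0.79, SE 0.46), so only replicate 2 stood above the controls. EIF2AK2, the kinase PKR, had -0.15 (SE 0.11), and ADAR, which edits double-stranded RNA, 0.07 (SE 0.07).

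Of 19 long noncoding RNAs tested, 2 had an unadjusted p under 0.05 with edgeR, against 1.58% of all genes tested, and 0 passed. They were listed as nuclear, but where each RNA lies in the cell was not measured. GAS5 (ENSG00000234741, chr1:173863900-173868882), a spliced transcript that hosts small nucleolar RNAs, had 385, 399 and 381 CPM with the siRNA and 434, 439 and 447 in the controls. The groups were separate and tight (-0.18, SE 0.06, unadjusted edgeR p 0.0153), and the log2 fold change was -0.20 without U1 siRNA replicate 2. NEAT1, the long unspliced scaffold of paraspeckles, had 38.2, 62.1 and 34.8 against 26.8, 36.0 and 30.3 CPM (0.53, SE 0.20, unadjusted edgeR p 0.0202). The groups overlapped, and the value was 0.24 without replicate 2. MALAT1, the RNA of nuclear speckles, had -0.10 (SE 0.10), and 7 of 19 members had higher values (median -0.03).

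Among all genes tested, 54.7% had higher values, or 50.3% without U1 siRNA replicate 2. Of the ribosomal protein genes, 14 of 81 had higher values (median -0.05), and without U1 siRNA replicate 2 it was 42 of 81 (median 0.0015), with 0 calls. Their summed level was 117540 CPM in that library, the lowest of the 6, and 123010 to 133870 CPM in the other 5. Of the mitochondrial genes, 3 of 15 had higher values (median -0.04), or 5 of 15 without that library (median -0.02). Of the histone genes, 14 of 25 had higher values (median 0.04), or 19 of 25 without replicate 2 (median 0.13). Of the immediate early genes, 4 of 10 had higher values (median -0.08), but 7 of 10 without replicate 2 (median 0.10). In this list MYC had 0.05 (SE 0.18) and JUN, a subunit of AP-1, -0.14 (SE 0.17).

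Markers of HEK293T cells were present, with NEFL, a neurofilament protein typical of this line, at 72.7 to 109.7 CPM and VIM, the filament protein vimentin, at 45.4 to 53.9 CPM, whereas PAX2 had 1 or 2 counts per library. Of 15 markers of blood, pigment, connective tissue and liver cells, 2 had enough counts to be tested and none was at 0 in all 6 libraries. Their summed level was 33.1 CPM in U1 siRNA replicate 2 and 8.997 to 13.1 in the other 5. COL1A1, a fibroblast collagen, had 32 counts in that library against 7 to 24 elsewhere. TTR, a liver transport protein, had 22 counts there against 2 to 6. The part of this in any result of replicate 2 was not tested.

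Whether any gene differed in its response to U1 siRNA and to the miR-211 plasmid, each against its own control, was tested over all 12 libraries. Of 13520 genes, 1 passed (0.0074% called), MIR211, the gene carried by the plasmid (log2 difference -7.83, SE 1.15, edgeR adjusted p 0.0447). It had 4, 6 and 7 counts with the siRNA and 2, 8 and 1 in the controls. The miR-211 plasmid libraries had 1646, 1997 and 1976 and the control plasmid libraries 1, 9 and 1. DNAJB6 had the next lowest p in that test, with a difference of 0.50 (SE 0.13, adjusted p 0.999).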

How the data were processed

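Gene expression was measured by RNA-seq in 6 libraries, 3 per group, and all 12 for the interaction. The deposited values are raw counts of read pairs per gene, with no normalization by the authors. The submitters' processing notes name STAR (2.7.2a), GRCh37 and hg19, yet all 58735 gene identifiers in the tables are those of GENCODE 29, made on GRCh38. The build of the alignment is therefore unsettled, and coordinates and sequences here are from GENCODE 29. Neither the RNA selection nor the strandedness of the kit is given by the labels or notes. Gene counts of the 2 strand columns stood at ratios of 0.990 to 1.10 in the 12 libraries, as in libraries that do not keep the strand. Overlapping antisense genes therefore cannot be told apart in any column. Values are from the unstranded column, and the 4 summary lines were left out. Gene counts do not show splicing.

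Counts were scaled by TMM, filtered with filterByExpr and tested with edgeR 4.0.16 in R 4.3.3 (quasi-likelihood test, Benjamini-Hochberg adjusted p under 0.05). Alternatives used DESeq2 1.42.0 and limma 3.58.1 (voom), other scaling and filters, strand columns, a covariate and libraries left out. Library values were compared by exact permutation tests in scipy 1.17.1. The edgeR test was also run on counts simulated with the means and dispersions of these libraries, and no result here rests on that run. No 2 replicates were alike within counting noise (chi-square of 2.15 to 6.80 per degree of freedom). Log2 CPM used a prior count of 2.

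Genes were named by rule: all past the threshold or, as fewer than 24 passed, 12 protein-coding genes at each end of the order by signed p whose mean CPM reached 1. The rule added every tested U1 snRNA, U1 snRNP and RNA interference gene, and per other list the 2 lowest p and the highest level, from which examples are given. Some genes that the rule picked are not reported here. Members, lists and tests were chosen with earlier results of these data known.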

Additional observations from a re-analysis of the deposited data

Results flagged for a closer look

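MIR211 is the gene carried by the miR-211 plasmid, so its difference was fixed by the design. It differed between the U1 siRNA effect and the miR-211 plasmid effect in a test of the difference itself over all 12 libraries (log2 difference -7.83, SE 1.15, edgeR adjusted p 0.0447). The adjusted p was 0.0561 with the replicate number as a block, 0.0816 without U1 siRNA replicate 1, 0.0915 without U1 siRNA replicate 3, 0.176 without scrambled oligo replicate 1 and 0.99993 without scrambled oligo replicate 2. The same test called 1 gene with RLE scaling, with a CPM filter of 5, without U1 siRNA replicate 2 and without scrambled oligo replicate 3. With 3 libraries in a group, single outlying values were not screened.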

How the results depend on the processing

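The count of genes called with U1 siRNA was 0 under every alternative run except that without a filter on low counts, which called 7. Each of these rested on 1 library: AC025181.1 had 104 counts in scrambled oligo replicate 3 and 0 to 3 elsewhere, FTH1 had 524 in U1 siRNA replicate 1 and 39 to 142 elsewhere, and CYBA 102 in U1 siRNA replicate 1 and 3 to 21 elsewhere. The difference test between both experiments called 0 genes with the replicate number as a block and 0 to 1 with a library left out. Replicate numbers gave no clear pairing of the libraries, and these values do not settle it (correlations of deviations 0.140, 0.0907 and -0.0480, with 2 of 3 numbers correlating best with themselves). With the replicate block the test of U1 siRNA called 0 genes, with 224 at an unadjusted p under 0.05 in place of 196, and the span difference was 0.0458. The summed U1 difference was -30.3% for the genes with the whole siRNA target, and from -16.4% to -1.19% for the 15 genes as U1 siRNA replicate 1 or 2 was left out. The longest decile minus the other genes was -0.0184 with the share outside exons as a covariate, from -0.0741 to 0.157 as U1 siRNA replicate 2 or 3 was left out, and, among genes with a mean of at least 10 CPM, 0.0229, or -0.0463 without U1 siRNA replicate 2 (both added after the data were seen). The share outside exons differed by -3.42 points without U1 siRNA replicate 2 and by up to 9.87 without replicate 1. Of the genes named by rule, ADAR turned to -0.0025 without a filter and COL1A1 to -0.195 without U1 siRNA replicate 2 (up to 1.14 with another library left out), where a change of sign was counted only for genes whose difference exceeded its standard error. The cause of these shifts was not tested. Depth limits the single U1 copies: the interval of the RNU1-1 ratio ran from 0.483 to 1.86.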
